A study of Mus musculus with 6 samples.

Results

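The voltage-gated sodium and calcium channels of the mouse are described here across the nuclei of the brain after loss of kidney mass. The 40 genes are all symbols in the feature lists of the type Scn, Cacna1, Cacna2d, Cacnb or Cacng with a number and the subunit letter, out of 32285 genes listed. They comprise 10 sodium channel pore genes, 4 sodium channel beta subunits, 10 calcium channel pore genes, 4 alpha2delta subunits, 4 calcium channel beta subunits and 8 gamma subunits. Brains of wildtype C57BL/6 mice were taken 6 weeks after sham surgery or after 5/6 nephrectomy, which removes most of the kidney mass and models chronic kidney disease. Sorted nuclei gave 3 sham and 3 nephrectomy libraries of droplet RNA counts, in which each molecule is counted once by its unique molecular identifier (UMI). The labels give no age or sex, and they do not say whether a library came from 1 animal or from pooled animals. Each p-value between surgeries thus measures the spread between libraries. Those between classes, and for differences of effects, measure how far the difference between classes varies over libraries.

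Sodium channels open on depolarization and carry the rising phase of the action potential. Each is built from a large pore-forming alpha subunit and small beta subunits, which alter gating and adhere to other proteins at the membrane. Calcium channels turn depolarization into calcium entry. Their pore genes fall into high-voltage types, which drive transmitter release, dendritic signals and transcription, and low-voltage or T-type channels, which shape burst firing. The alpha2delta and beta subunits carry the pores to the membrane. Several gamma subunits act instead as auxiliary proteins of AMPA-type glutamate receptors, where they are known as TARPs.

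The libraries held 15691316 to 41532967 UMIs. Of 42589 barcodes, 40685 passed the filters, and 20241 of these (49.8%) were placed in 1 cell class by their markers. That share ran from 26.3% in nephrectomy 1 to 77.0% in sham 1, and the median depth from 1001 to 5353.5 UMIs per nucleus in the same libraries. The largest class was striatal projection neuron-like with 5438 nuclei, although the series' design text speaks of cortex. It was followed by excitatory neuron-like (4214), oligodendrocyte-like (3558), inhibitory neuron-like (3388), astrocyte-like (2256), oligodendrocyte precursor-like (646), microglia-like (333), endothelial-like (290) and mural-like nuclei (73). All 8 markers of a class were detected in that class, except that 1 of the 8 mural markers was at 0 in mural-like nuclei. Library pairs shared 1 to 50 cell barcodes.

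Nephrectomy 1 stood apart in some marker lists. The summed level of the 8 excitatory markers in astrocyte-like nuclei was 593 CPM in this library (UMIs per 1000000 UMIs of the class), against 230 to 367 in the other libraries. In microglia-like nuclei it was 858 CPM, against 344 to 503. Striatal projection neuron-like nuclei of this library had 519 CPM of the same markers, against 169 to 295, and 4343 CPM of their own markers, against 5433 to 5977. The inhibitory markers did not stand apart in its astrocyte-like nuclei, at 653 CPM against 632 to 938. They did in its excitatory neuron-like nuclei, at 290 CPM against 107 to 184. Inhibitory neuron-like nuclei were also uneven. Meis2, a homeobox gene of many GABA neurons that was chosen after its values were seen, stood at 1537, 485 and 807 CPM in sham 1 to 3 and at 488, 1978 and 1080 CPM in nephrectomy 1 to 3.

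For Cacna2d3, which differed between the neuron classes, the 250 bases before the start that RefSeq gives for GRCm38.p6 are shown in the gene's own direction. They lie at chr14:29721865-29722114 on the minus strand and end next to the start of the gene in the GENCODE annotation, at 29721864. Capitals mark the GC box GGGCGG or its reverse complement CCGCCC, a motif bound by Sp-family factors.
Cacna2d3: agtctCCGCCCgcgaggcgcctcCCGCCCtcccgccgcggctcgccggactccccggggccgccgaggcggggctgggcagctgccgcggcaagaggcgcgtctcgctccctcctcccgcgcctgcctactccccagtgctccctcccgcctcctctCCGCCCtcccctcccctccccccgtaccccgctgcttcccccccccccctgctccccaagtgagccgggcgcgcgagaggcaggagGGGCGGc
The sequence had 4 GC boxes and 30 CG pairs, against a median of 6 CG pairs in all 32851 windows of the RefSeq table and 8 in the 41 windows of the 30 channel genes with an entry. GC boxes, searched on both strands, were in 32.7% of all windows and in 15 of the 41. The TATA box TATAAA was in 12.4% of all windows and in 2 of the 41, and the cAMP response element TGACGTCA was in 1.55% of all windows and in none of the 41. The sequence shown held neither motif. RefSeq and GENCODE can place a start differently, and then such a window lies within the gene by the other annotation.

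The 40 genes divided into a broadly detected set and a set near the limit of detection. The 7 genes with the fewest UMIs were the skeletal muscle sodium channel Scn4a (2 UMIs in all kept nuclei), Scn11a (21) and Scn10a (44), which are known from sensory neurons, the skeletal muscle calcium channel Cacna1s (47), Cacng6 (62), the muscle subunit Cacng1 (66) and the retinal channel Cacna1f (162). Among the 33 genes with at least 100 UMIs in the classes, the highest mean level was in excitatory neuron-like nuclei for 10, in striatal projection neuron-like nuclei for 10, in inhibitory neuron-like nuclei for 9, in oligodendrocyte precursor-like nuclei for 2 and in oligodendrocyte-like nuclei for 2.

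**Figure D1:**
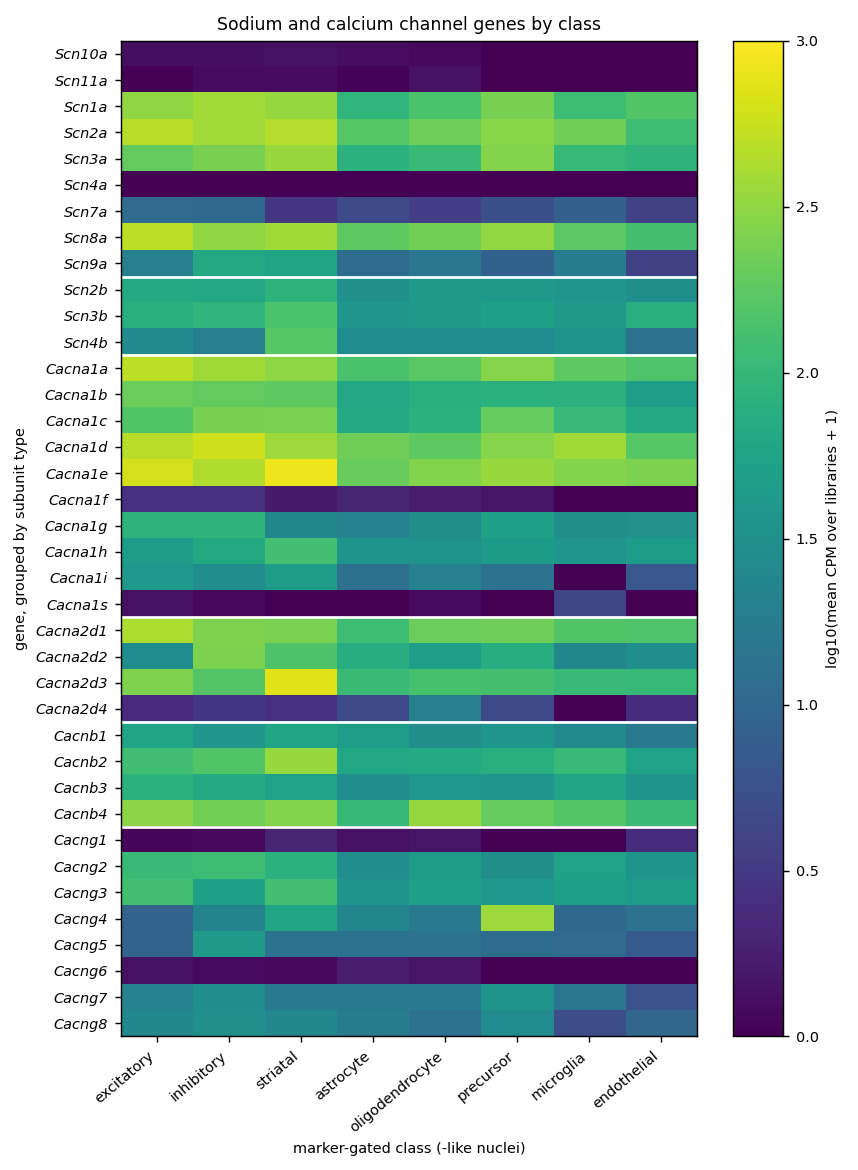
Mean level of the channel genes (rows, grouped by subunit type with white lines between types) in 8 marker-gated classes (columns), as log10 of mean CPM over libraries plus 1. Cacng4 is brightest in oligodendrocyte precursors (358 CPM), and Scn4b and Cacna2d3 in striatal projection neurons (167 and 740 CPM).

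Striatal projection neuron-like nuclei, the GABA output neurons of the striatum, differed from excitatory neuron-like nuclei in 25 of 32 tested channel genes. With libraries as blocks in edgeR's quasi-likelihood test and Benjamini-Hochberg adjustment over 14076 genes, 14 were higher and 11 were lower in the striatal class. Of all genes, 25.6% were called higher and 25.1% lower. Scn4b, the beta subunit tied to resurgent sodium current, ran from 126 to 217 CPM over the 6 libraries of the striatal class (median 166). It ran from 18.1 to 41.2 CPM in the excitatory class (median 23.6). The libraries of both classes did not overlap, and the log2 fold change was 2.72 ± 0.25 (SE, n = 6 libraries, edgeR adjusted p = 0.000266). Cacng4, a TARP, was at 58.5 ± 7.21 CPM (SD, n = 6) in the striatal class and at 8.05 ± 4.20 in the excitatory class (log2 fold change 2.88 ± 0.27, edgeR adjusted p = 0.00012).

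Other subunits of the calcium channel complex were also higher in the striatal class than in the excitatory one. Cacna2d3 ran from 577 to 853 CPM (median 749) in the striatal class and from 203 to 297 (median 272) in the excitatory class, again with no overlap (log2 fold change 1.51 ± 0.11, SE). Cacnb2, a membrane-anchored beta subunit, averaged 347 and 119 CPM (1.55 ± 0.09), and Cacna2d2 averaged 146 and 27.7 CPM (2.42 ± 0.12). The T-type channel Cacna1h averaged 125 ± 24.8 CPM against 43.7 ± 4.20 (1.51 ± 0.12, edgeR adjusted p = 4.78e-06). Among sodium channels, Scn9a (1.52 ± 0.10), Scn3b (0.89 ± 0.05), Scn3a (0.83 ± 0.08) and Scn2b (0.38 ± 0.06) were higher as well.

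The T-type channel Cacna1g differed in the opposite direction. It ran from 15.1 to 30.1 CPM (median 22.9) in striatal projection neuron-like nuclei and from 70.5 to 103 CPM (median 87.0) in excitatory neuron-like nuclei. The log2 fold change was -1.86 ± 0.14 (SE, n = 6 libraries, edgeR adjusted p = 3.26e-06), and each of the 6 libraries was lower in the striatal class. Cacna1i, the third T-type pore, was at 44.3 ± 7.01 and 38.9 ± 8.72 CPM and did not pass the test (0.20 ± 0.11, edgeR adjusted p = 0.142). Also lower in the striatal class were Cacna2d1 (-0.76 ± 0.05), which encodes the gabapentin-binding subunit, the P/Q-type pore Cacna1a (-0.65 ± 0.04), Cacnb3 (-0.60 ± 0.07) and Scn8a (-0.41 ± 0.04), the pore of the distal axon initial segment and nodes. Scn1a (0.10 ± 0.05) and Scn2a (-0.01 ± 0.04) did not pass the test, with edgeR adjusted p = 0.0966 and 0.906.

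**Figure D2:**
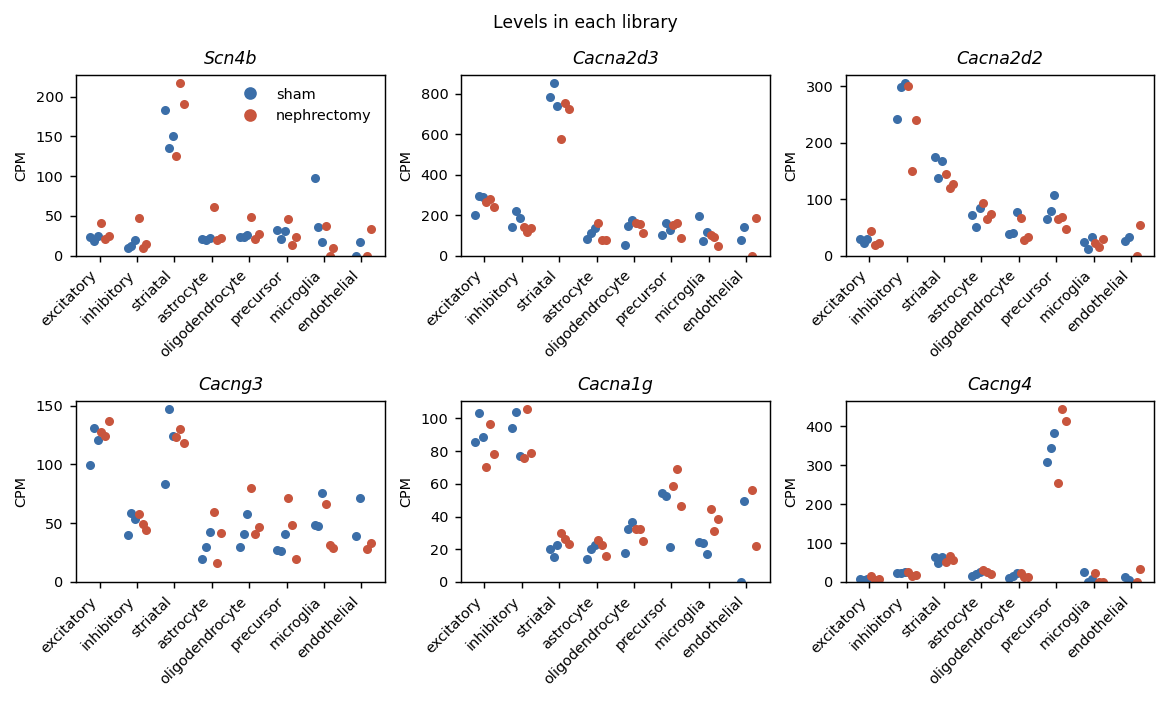
Levels (CPM, linear axes from 0) of 6 channel genes in each library with at least 20 nuclei of a class, for 8 classes. Blue points are sham and red points nephrectomy libraries, and Scn4b and Cacna2d3 are separate in the striatal class, Cacna2d2 is lowest among neurons in the excitatory class, Cacna1g is lowest among neurons in the striatal class and Cacng4 stands at 254 to 444 CPM in precursors.

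Against inhibitory neuron-like nuclei, the striatal class differed in 25 of 32 tested channel genes, with 15 higher and 10 lower. All genes gave 22.1% higher and 21.2% lower. Scn4b (log2 fold change 3.47 ± 0.38, SE), Cacna2d3 (2.39 ± 0.10), Cacng4 (1.60 ± 0.12), Cacnb2 (1.32 ± 0.06) and Cacna1h (1.04 ± 0.20) were again higher in the striatal class. So were the TARP Cacng3 (1.39 ± 0.08) and the R-type pore Cacna1e, at 839 ± 75.3 against 436 ± 60.9 CPM (1.08 ± 0.08). Lower in the striatal class were Cacna1g (-1.79 ± 0.13), Cacng5 (-1.56 ± 0.18), Cacng7 (-0.72 ± 0.15), Cacna2d2 (-0.66 ± 0.10), the L-type pore Cacna1d (-0.53 ± 0.10) and Cacng2 (-0.36 ± 0.07), the gene known as stargazin.

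Excitatory and inhibitory neuron-like nuclei differed in 23 of 32 tested channel genes, with 15 higher in the excitatory and 8 higher in the inhibitory class. Of all 13249 genes, 20.6% were called higher in the excitatory and 22.4% in the inhibitory class. Cacna2d2 had the largest difference of the named genes, from 151 to 306 CPM over libraries of the inhibitory class (median 270) against 19.2 to 42.9 CPM in the excitatory class (median 25.8). The ranges did not overlap (log2 fold change -3.12 ± 0.10, excitatory minus inhibitory, edgeR adjusted p = 5.4e-12). Cacng5 was at 40.8 ± 22.0 against 7.93 ± 2.43 CPM (-2.28 ± 0.16). Over the libraries of the inhibitory class it was at 71.2, 20.2 and 27.8 CPM in sham 1 to 3 and at 21.9, 64.1 and 39.3 CPM in nephrectomy 1 to 3. Sham 1 and nephrectomy 2 were its highest libraries, as they were for Meis2, Cacna1c and Cacna2d1 in this class, and the part of that mix in the values was not tested.

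Scn9a (-1.58 ± 0.16), the pore Nav1.7, and Cacng4 (-1.41 ± 0.17) were higher in inhibitory neuron-like nuclei as well. Scn1a, the pore known for its role in fast-spiking GABA neurons and in Dravet syndrome, was at 385 ± 24.4 CPM there and at 313 ± 29.6 in the excitatory class. It was higher in the inhibitory class in 6 of 6 libraries, with a log2 fold change of -0.21 ± 0.06 (edgeR adjusted p = 0.00758). Scn8a was instead higher in the excitatory class, at 497 ± 34.9 against 313 ± 42.3 CPM (0.77 ± 0.07, edgeR adjusted p = 5.34e-08). Also higher there were Cacng3 (1.39 ± 0.08), Cacna2d3 (0.84 ± 0.09), Cacna2d1 (0.82 ± 0.17), Cacnb1 (0.80 ± 0.09), Cacna1e (0.61 ± 0.08) and Cacna1a (0.49 ± 0.05). Cacng7 (-0.41 ± 0.12) and Cacnb2 (-0.27 ± 0.07) were higher in the inhibitory class. Both lost their calls in the sham libraries alone, with edgeR adjusted p = 0.146 and 0.102. Cacng7 also lost its call with the DESeq2 Wald test (adjusted p = 0.0671) and without sham 3 (edgeR adjusted p = 0.0745). Cacnb2 also lost its call with a margin of 1 marker in the gate (edgeR adjusted p = 0.0544).

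Outside neurons, channel counts were read beside genes that define neurons. Snap25, Rbfox3, Slc17a7, Gad1 and Gad2, which glia and vessels should lack, stood in astrocyte-like nuclei at 12.9% to 32.7% of their highest neuron-class level. The range was 16.3% to 44.6% in oligodendrocyte-like, 12.3% to 46.7% in precursor-like, 16.7% to 52.6% in microglia-like and 7.32% to 35.5% in endothelial-like nuclei. Slc17a7, Gad1 and Gad2 are themselves markers of the gate, which holds down their level in these classes. Snap25, Rbfox3 and the channel genes are not markers, so these ranges are a rough guide only. The 30 channel genes with at least 20 CPM in a neuron class had a median of 28.1% in astrocytes, 34.8% in oligodendrocytes, 45.4% in precursors, 34.2% in microglia and 26.9% in endothelium, within those ranges. Above the highest of the neuron-defining genes were 11, 9, 13, 3 and 7 channel genes in the same order of classes.

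**Figure D3:**
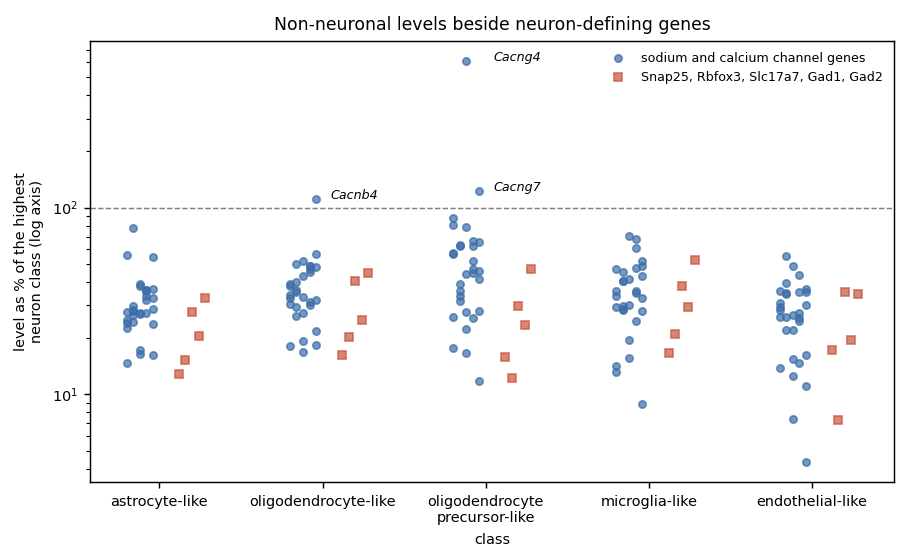
Level of each channel gene (blue circles, 30 genes with at least 20 CPM in a neuron class) and of 5 neuron-defining genes (red squares) in 5 non-neuronal classes, as a percentage of the gene's highest neuron-class level on a log axis. Most circles lie among the squares, and Cacng4, Cacng7 and Cacnb4 lie above the dashed line at 100%. Among the squares, Slc17a7, Gad1 and Gad2 are markers of the gate.

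Among the neuron, glial and endothelial classes, Cacng4 and Cacng7 had their highest mean level in oligodendrocyte precursor-like nuclei. For Cacng7 the libraries overlapped those of inhibitory neuron-like nuclei, at 20.8 to 59.7 against 18.9 to 36.0 CPM. Cacng4 ran from 254 to 444 CPM over 6 libraries (median 363), which was 611% of its highest neuron-class level, and from 9.81 to 23.1 CPM (median 13.8) in oligodendrocyte-like nuclei. The log2 fold change was 4.28 ± 0.16 (SE, n = 6 libraries, edgeR adjusted p = 3.9e-22), and the libraries did not overlap. The gene lies at chr11:107732357-107794557 of GRCm38 on the minus strand. Precursors are known to receive glutamatergic synapses, and TARPs are partners of their AMPA receptors.

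Of 26 channel genes tested between precursors and oligodendrocytes, 10 were higher in precursors and 1 was higher in oligodendrocytes. Of all 8096 genes, 17.2% and 14% were called in these directions. Scn3a, a pore known from developing brain, was at 276 ± 75.0 against 103 ± 15.8 CPM (1.27 ± 0.13, edgeR adjusted p = 2.04e-10). The L-type pore Cacna1c was at 194 ± 34.5 against 81.7 ± 19.0 CPM (1.17 ± 0.14), and both genes stood in precursors at 81.1% and 78.5% of their highest neuron-class level. Cacng7 (1.09 ± 0.27), Scn1a (0.69 ± 0.13) and Cacna1a (0.62 ± 0.12) were also higher in precursors. The count was 7 in the sham libraries alone and 7 in nuclei with at least 1000 genes.

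Cacnb4, a beta subunit whose loss causes ataxia in the lethargic mouse, was the channel gene called higher in oligodendrocytes. It stood at 331 ± 42.9 CPM there and at 194 ± 52.8 in precursors (-0.90 ± 0.12, edgeR adjusted p = 1.1e-07). Its oligodendrocyte level was 111% of its highest neuron-class level, 298 CPM in the excitatory class. Cacna2d4 was at 19.3 ± 4.82 CPM in oligodendrocytes and at 1.27 to 3.72 CPM on average in the neuron, astrocyte and precursor classes, and it was not among the genes tested between these classes. In vessels, 2 sham libraries reached 20 nuclei of the mural-like class, and 4 channel genes could be tested against endothelial-like nuclei. Scn1a was higher in mural-like nuclei (295 ± 149 against 118 ± 75.0 CPM, n = 2, edgeR adjusted p = 0.0363), where 8.94% of all genes were higher and 12.6% lower, but with DESeq2 the adjusted p was 0.711.

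After nephrectomy, no channel gene passed the test in any of the 8 classes with enough nuclei in both groups. The call share of all genes was 0% in each class, from 14287 genes tested in excitatory to 1898 in endothelial-like nuclei (edgeR, adjusted p under 0.05). Among channel genes, an unadjusted p under 0.05 was reached by 4 of 33 tested in excitatory, 3 of 32 in inhibitory and 3 of 31 in striatal projection neuron-like nuclei. In the other classes it was 3 of 29 in astrocytes, 1 of 31 in oligodendrocytes, 1 of 17 in precursors, 4 of 9 in microglia and 0 of 8 in endothelium. Over all genes, it was 761 (5.33%), 517 (4.02%) and 649 (4.78%) in the neuron classes and 433 (4.17%), 521 (4.66%), 250 (4.72%), 173 (7.95%) and 71 (3.74%) in the others, in the same order. DESeq2 and limma-voom called 0 channel genes and 0 genes in each class too.

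Fitted values lay mostly below 0 in neurons. In nephrectomy, 24 of 33 channel genes had the lower value in excitatory, 22 of 32 in inhibitory and 23 of 31 in striatal neurons, with medians of -0.14, -0.09 and -0.15 on the log2 scale. All genes had the lower value in 49.5%, 51.0% and 49.7% of cases and medians of 0.00, -0.01 and 0.00. Of 31 channel genes tested in all 3 neuron classes, 18 were lower in each and 5 were higher in each, among them Scn2b, Scn4b, Cacnb1 and Cacnb3. The 3 classes come from the same libraries, so they are not independent repeats. The same count was not made over all genes. Without sham 1 the medians were -0.03, 0.05 and -0.06, so that the inhibitory one turned direction. Without nephrectomy 1 they were -0.11, -0.14 and -0.10.

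Gene length moved with these values. Channel genes of at least 100 kb were lower in 17 of 18 tested in the excitatory, 14 of 18 in the inhibitory and 16 of 17 in the striatal class, with medians of -0.19, -0.16 and -0.27. The shorter channel genes were lower in 7 of 15, 8 of 14 and 7 of 14, with medians of 0.04, 0.00 and -0.03. All genes of at least 100 kb had medians of -0.09, -0.09 and -0.10, and the others of 0.02, 0.01 and 0.02. Among the genes that were higher in each neuron class, Scn2b is 12.3 kb, Cacnb3 13.7 kb, Scn4b 15.8 kb and Cacnb1 21.5 kb long. The part of gene length in the result was not tested.

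**Figure D4:**
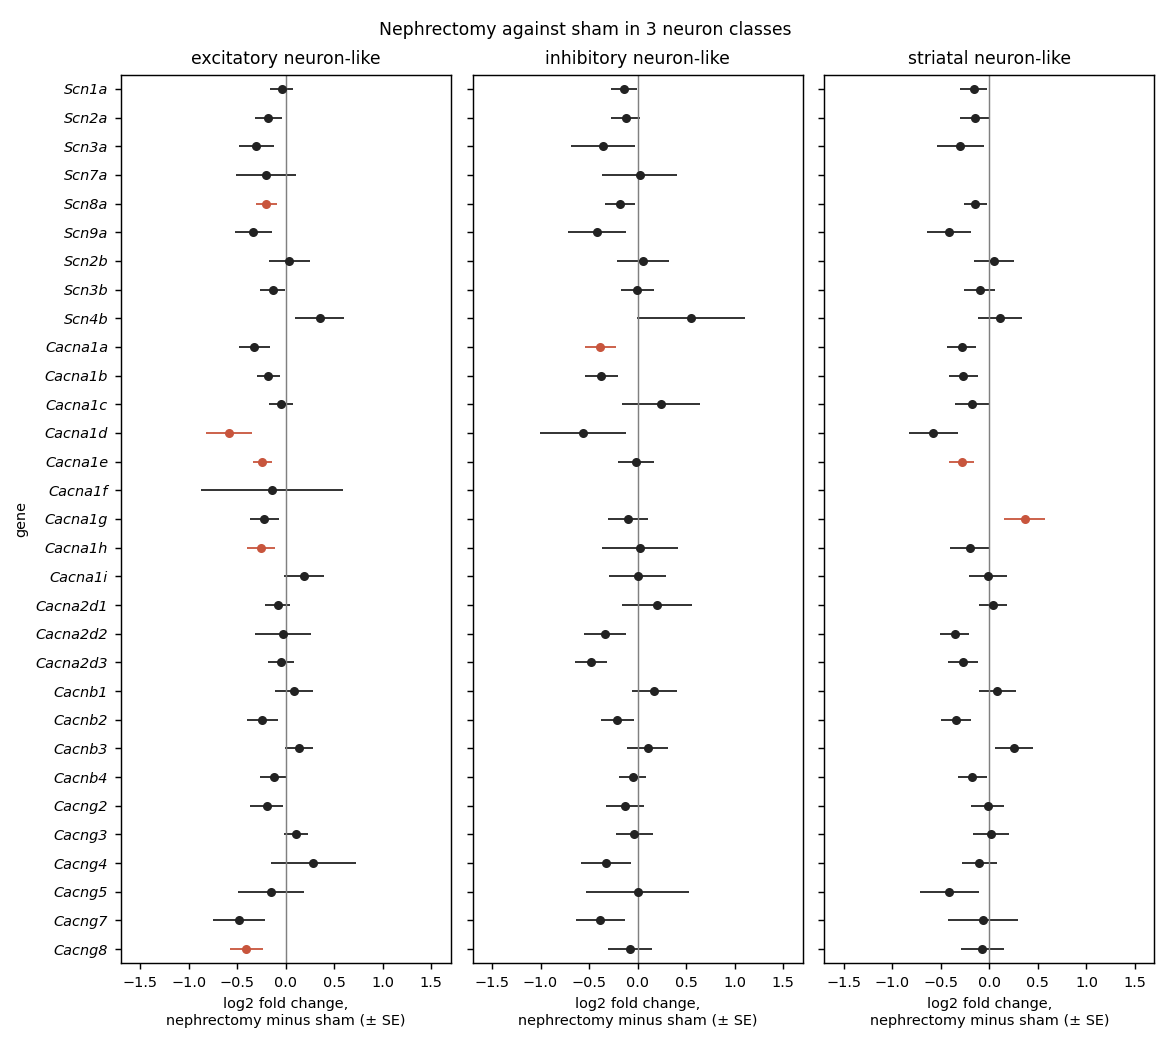
Log2 fold change of tested channel genes (rows), nephrectomy minus sham, with its SE as a bar, in 3 neuron classes (n = 3 libraries per group). Red points are genes whose 3 sham and 3 nephrectomy libraries did not overlap. Most points lie left of 0 in each class, and none passed the adjusted test.

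For sodium channel pores, fitted values were lower in 6 of 7 tested in the excitatory, 6 of 7 in the inhibitory and 6 of 6 in the striatal class. Scn8a in excitatory neuron-like nuclei was at 558, 500 and 510 CPM in sham 1 to 3 and at 462, 487 and 467 CPM in nephrectomy 1 to 3. The groups did not overlap, and the log2 fold change was -0.20 ± 0.11 (SE, n = 3 per group, edgeR adjusted p = 0.889). Scn1a in the same class was at 290, 300 and 348 CPM in sham and at 298, 354 and 289 CPM in nephrectomy, with wide overlap. Scn2a was at 582, 427 and 478 CPM in sham and 439, 460 and 463 CPM in nephrectomy. Sham 1 was the highest of the 6 libraries for Scn2a and also for Scn3a, at 269, 171 and 183 CPM in sham and 181, 177 and 170 CPM in nephrectomy.

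Among calcium channel pores, Cacna1e was the gene whose groups did not overlap in more than 1 neuron class. In excitatory neuron-like nuclei it was at 654, 639 and 707 CPM in sham 1 to 3 and at 633, 560 and 558 CPM in nephrectomy 1 to 3 (log2 fold change -0.24 ± 0.10, SE, edgeR adjusted p = 0.889). In the striatal class it was at 873, 942 and 895 CPM in sham and at 755, 796 and 772 CPM in nephrectomy (-0.29 ± 0.13, edgeR adjusted p = 0.919). In the inhibitory class the groups overlapped, with 469, 358 and 467 CPM in sham and 398, 523 and 398 CPM in nephrectomy.

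Cacna1d rested on sham 1. It was at 801, 466 and 422 CPM in sham and 404, 401 and 377 CPM in nephrectomy in the excitatory class, with no overlap (-0.58 ± 0.24, edgeR adjusted p = 0.889). Sham 1 was also highest in the striatal class, at 601 CPM against 275 to 359 in the other libraries, and in the inhibitory class, at 1195 CPM against 382 to 663. Leaving out each library in turn and the other settings gave -0.78 to -0.18 in the excitatory class, always below 0. In oligodendrocyte-like nuclei Cacna1d was at 237, 202 and 197 CPM in sham and 154, 183 and 117 CPM in nephrectomy, with no overlap (-0.53 ± 0.21, edgeR adjusted p = 0.991).

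The P/Q-type pore Cacna1a was at 450, 409 and 401 CPM in sham and at 315, 364 and 315 CPM in nephrectomy in inhibitory neuron-like nuclei, with no overlap (-0.38 ± 0.16, edgeR adjusted p = 0.998). In the excitatory class it was at 637, 512 and 478 CPM in sham and 396, 529 and 426 CPM in nephrectomy, with overlap. The T-type pore Cacna1g in the striatal class was at 20.4, 15.1 and 22.7 CPM in sham and 30.1, 26.2 and 23.1 CPM in nephrectomy, with no overlap (0.36 ± 0.21, edgeR adjusted p = 0.919). Cacna1h in the excitatory class was at 49.0, 46.5 and 44.5 CPM in sham and 43.9, 40.8 and 37.2 CPM in nephrectomy, also with no overlap (-0.25 ± 0.14). Cacna1b, the N-type pore, overlapped in the 3 neuron classes.

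Auxiliary calcium channel subunits gave 1 gene with no overlap in neurons. Cacng8, a TARP, was at 29.2, 24.0 and 27.3 CPM in sham and at 22.4, 19.2 and 21.5 CPM in nephrectomy in excitatory neuron-like nuclei (-0.41 ± 0.17, edgeR adjusted p = 0.889). Cacna2d3 was at 141, 219 and 188 CPM in sham and 142, 119 and 137 CPM in nephrectomy in the inhibitory class, where the groups overlapped, and at 203, 297 and 288 CPM and 266, 279 and 241 CPM in the excitatory class. Cacna2d1 in the excitatory class was at 450, 416 and 413 CPM in sham and 348, 468 and 435 CPM in nephrectomy. Cacnb4 and Cacng2 overlapped in all 3 neuron classes.

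**Figure D5:**
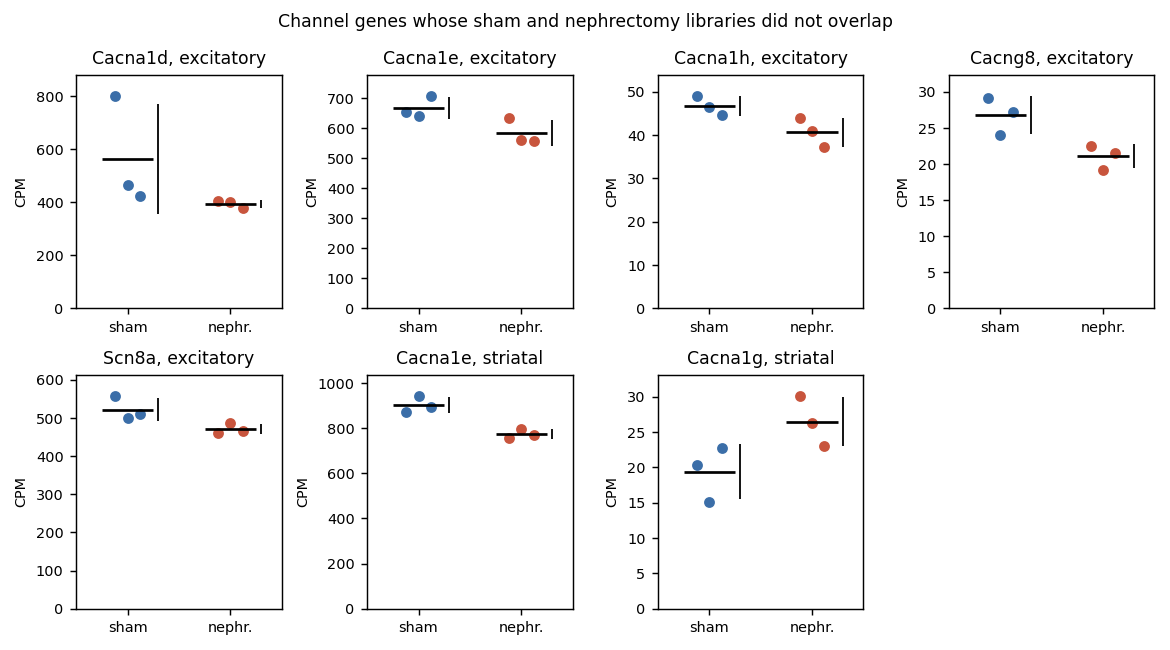
Levels (CPM, linear axes from 0) in each library of 7 channel gene and class pairs. The pairs are some of those in the excitatory and striatal classes with at least 20 CPM in a group and no overlap between groups. Horizontal lines are means and vertical lines SDs of 3 sham (blue) and 3 nephrectomy (red) libraries. Of the pairs shown, 6 are lower and 1 is higher in nephrectomy.

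In counts, 1 channel gene was higher with no overlap and 5 were lower in the excitatory class, 0 and 2 in the inhibitory class, and 1 and 2 in the striatal class. Of all genes, 7.76% were higher and 3.79% lower with no overlap in the excitatory class, 5.51% and 4.07% in the inhibitory class and 6.76% and 3.62% in the striatal class. None of these genes had an adjusted p under 0.05.

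In glia and vessels the fitted values lay on the other side of 0 in 3 classes. In nephrectomy, 21 of 29 channel genes had the higher value in astrocytes (median 0.19), 20 of 31 in oligodendrocytes (0.11) and 8 of 9 in microglia (0.79). It was 4 of 17 in precursors (-0.11) and 4 of 8 in endothelium (-0.19). All genes had the lower value in 50.2%, 48.5%, 49.5%, 49.3% and 52.5% of cases, in the same order of classes. The medians of all genes were -0.0009, 0.012, 0.0086, 0.0050 and -0.025. Without nephrectomy 1 the medians of channel genes were -0.04 in astrocytes, -0.07 in oligodendrocytes and 0.46 in microglia. The excitatory markers ranged from 233 to 367 CPM in sham and from 230 to 593 CPM in nephrectomy in astrocytes, with the highest value in nephrectomy 1. In oligodendrocytes they ranged from 357 to 428 CPM in sham and from 383 to 620 CPM in nephrectomy. In microglia they ranged from 344 to 415 CPM in sham and from 349 to 858 CPM in nephrectomy. Their part in these values was not tested.

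Channel genes with no overlap in these classes were few. In astrocytes, Cacna1c was at 42.3, 42.7 and 70.3 CPM in sham and 77.7, 89.8 and 80.7 CPM in nephrectomy (0.57 ± 0.23, edgeR adjusted p = 0.978). Cacnb2 was the other (0.27 ± 0.22). The background was 6.37% of genes higher and 3.64% lower. In oligodendrocytes, Cacna2d1 was higher (0.18 ± 0.18) and Cacna1d lower, against 5.79% and 4.12% of all genes. In precursors, Scn3a was lower, at 423, 282 and 254 CPM in sham and 234, 222 and 240 CPM in nephrectomy (-0.43 ± 0.23), against 5.29% and 5.14% of all genes. In microglia, Cacna2d1 was at 48.8, 71.1 and 161 CPM in sham and 229, 236 and 165 CPM in nephrectomy (1.06 ± 0.41, edgeR adjusted p = 0.556). Microglia-like nuclei numbered 20 to 109 per library, with 40970 to 135236 UMIs, so the lower values rest on few UMIs. Scn1a was higher there too (0.79 ± 0.41), against 4.78% higher and 8.31% lower. In endothelium, with 2 libraries per group, Cacna2d1 was higher (0.61 ± 0.55), against 15.2% higher and 14.2% lower.

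The summed share of UMIs in the 40 genes was 0.577% ± 0.0443 in sham and 0.528% ± 0.0199 in nephrectomy in excitatory neuron-like nuclei (SD, n = 3 each, 2-sided exact permutation p = 0.2). It was 0.541% ± 0.0658 against 0.494% ± 0.0357 in the inhibitory class (exact p = 0.4) and 0.667% ± 0.0321 against 0.606% ± 0.0388 in the striatal class (exact p = 0.2). With 3 against 3 libraries, no p under 0.1 is possible. In astrocytes the share was 0.194% in sham and 0.228% in nephrectomy, and in microglia 0.241% and 0.298% (exact p = 0.5 and 0.2). Adjusted over 8 classes, the lowest p was 0.533.

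Whether nephrectomy acted differently on the neuron classes was tested as a difference of effects. No channel gene and 0% of all genes were called in any of the 3 comparisons (edgeR), with 1, 2 and 0 channel genes at an unadjusted p under 0.05. Cacna2d3 had an effect of -0.04 in the excitatory and -0.48 in the inhibitory class, a difference of 0.45 ± 0.13 (edgeR adjusted p = 1.00). Cacna1g differed by -0.58 ± 0.21 between the excitatory and the striatal class, with effects of -0.22 and 0.36, and Scn7a, at 10.3 and 1.99 CPM in these classes, by -1.74 ± 0.61.

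Genes that work with these channels gave the same result for nephrectomy, with 0 called of those tested in every list and class (edgeR). Of 13 partners of sodium channels at the axon initial segment, 5 had the higher and 8 the lower value in the excitatory class. The scaffold Ank2 was at 1600 ± 74.7 CPM in sham and 1377 ± 40.8 in nephrectomy there (-0.27 ± 0.10, edgeR adjusted p = 0.889), and Ank3, which anchors sodium channels at the initial segment, at 1547 ± 333 and 1210 ± 78.0 in the striatal class (-0.43 ± 0.19). Of the calcium channel partners, 14 of 18 were tested in the excitatory class, with 8 higher and 6 lower.

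All 4 tested genes of the sodium leak channel complex had the lower value in each of the 3 neuron classes, with medians of -0.20, -0.16 and -0.19. All 4 were also lower in oligodendrocytes (median -0.09) and precursors (-0.24), and all 4 were higher in astrocytes (0.19). Of 5 tested intracellular calcium release channels, 3, 4 and 4 had the lower value in the excitatory, inhibitory and striatal classes. A list of 20 nuclear genes of the respiratory chain, whose short transcripts are abundant in the cytoplasm, had the higher value for all 20 genes in each of these classes, with medians of 0.56, 0.60 and 0.64. With DESeq2's size factors it was 19 of 20 in the excitatory class and 20 of 20 in the others. Like the other lists, this list was chosen with earlier results of these data known. It was not refitted with single libraries left out. In these neuron classes the fitted values had the opposite sign to those of most long channel genes. The list also had mostly higher values in astrocytes (19 of 20), oligodendrocytes (20 of 20), precursors (13 of 14), microglia (6 of 6) and endothelium (6 of 10). Long channel genes had medians of 0.09, -0.01, -0.15, 0.57 and -0.19 there, so the signs were not opposite in every class. The part of the respiratory chain list in the result was not tested.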

How the data were processed

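The authors deposited 1 matrix of raw UMI counts per gene and nucleus for each of 6 libraries, as whole numbers. Per the labels' protocols, reads of the Chromium 3' kit (version 3.1) were mapped to mm10 with introns included. Cell Ranger is version 3.0 in the extract protocol, 2.1.1 in the submitters' processing notes and 6.0.1 per the file headers. The extract protocol also names Seurat 4.2.0.

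The filters kept nuclei in which 500 genes or more were detected and mitochondrial UMIs made up no more than 5%. A nucleus entered a class with UMIs of at least 3 of its 8 markers and at least 2 more markers than of any other class. The striatal class was the exception and was not compared with the inhibitory list, because striatal projection neurons express Gad1 and Gad2. Inhibitory nuclei could hold at most 2 striatal markers. Other nuclei with markers of several classes stayed without a class, and no doublet caller was run. Each class was summed within a library that held 20 or more of its nuclei, which leaves sham 1 and nephrectomy 1 out of the endothelial-like class and allows no nephrectomy test in mural-like nuclei. Counts were tested with edgeR 4.0.16 (quasi-likelihood, TMM scaling with factors from 0.886 to 1.058, filterByExpr, Benjamini-Hochberg over all genes), in R 4.3.3, between surgeries, between classes with the library as a block, and for differences of effects. CPM values are UMIs per 1000000 UMIs of the class in a library, and SEs were taken from the fitted value and its F statistic. Shares were compared by exact permutation. Scripts were tested on simulated data. DESeq2 1.42.0 and limma 3.58.1 were alternatives, with those in the closing section.

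Members and lists were chosen with earlier results of these data known. Named genes are channel genes past the test, per class up to 5 in each direction with the lowest p among those with no overlap between groups, a set of neuronal channel genes by level, and, between classes, up to 6 in each direction with the largest fitted difference, at least 20 CPM and the same direction in every library. Other genes named between classes come from that set or were chosen after their values were seen, as was the set of 5 neuron-defining genes. Libraries of 1 group differed beyond sampling noise, with a chi-square per degree of freedom of 2.87 to 12.4. Some channel and partner genes are not reported here.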

Additional observations from a re-analysis of the deposited data

How the results depend on the processing

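In the 8 comparisons of nephrectomy with sham and the 3 differences of effects, the number of channel genes called stayed at 0 in all 149 refits. These covered DESeq2 size factors, no filter on low counts, stricter nuclei or markers, and each library left out. They also covered a margin of 1 marker, chosen after the share of unclassed nuclei was seen. The DESeq2 test, limma-voom and the 4 libraries with short barcode lists were applied to the comparisons with sham, not to the differences of effects. Of all genes, the calls moved from 0 without the filter on low counts to 25 in inhibitory, 1 in astrocyte-like, 4 in oligodendrocyte-like, 3 in microglia-like and 2 in endothelial-like nuclei. With the 4 libraries they were 1 in precursors and 3 in endothelium, where sham 2 is then the lone sham library, and with at least 4 markers 1 in microglia. Leaving out single libraries gave 0 to 1 in precursors, 0 to 4 in microglia and 0 to 7 in endothelium. In endothelium each such fit leaves 1 library in a group, which is assumed to vary like the other group.

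The median log2 fold change of channel genes was less stable. With the 4 libraries it was -0.21 in excitatory, -0.19 in inhibitory, 0.10 in microglia-like and 0.48 in endothelial-like nuclei, where it turned and where this is the same fit as that without sham 3. With a margin of 1 it turned to 0.050 in precursors and 0.055 in endothelium and was 0.27 in microglia. Leaving out single libraries gave -0.19 to -0.030 in excitatory, -0.19 to 0.052 in inhibitory, -0.22 to -0.061 in striatal, -0.044 to 0.35 in astrocyte-like, -0.066 to 0.25 in oligodendrocyte-like, -0.23 to 0.026 in precursor-like, 0.46 to 0.82 in microglia-like and -0.59 to 0.48 in endothelial-like nuclei. The inhibitory value turned without sham 1 (0.052), the precursor value without nephrectomy 3 (0.026), and the astrocyte (-0.044) and oligodendrocyte (-0.066) values without nephrectomy 1, and the causes were not tested.

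Between classes, the channel genes called numbered 19 to 27 (excitatory against inhibitory), 23 to 28 (striatal against excitatory), 24 to 26 (striatal against inhibitory) and 7 to 13 (precursors against oligodendrocytes, 7 in sham alone and 7 in nuclei with at least 1000 genes). For mural-like against endothelial-like nuclei the count was 0 with DESeq2 and 0 without the filter. The difference in the share of UMIs moved by less than 1 SD of the libraries from its reported value at all settings run. With single libraries left out it nevertheless crossed 0 in astrocytes (-0.00140 to 0.0552 percentage points), oligodendrocytes (-0.0138 to 0.0314), precursors (-0.0283 to 0.00761) and endothelium (-0.0819 to 0.0471).

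Same-numbered sham and nephrectomy libraries did not deviate together, with correlations from -0.22 to 0.22, so the numbers were taken as names. With the replicate block, 0 channel genes were called in each class, and the medians were -0.14 in excitatory, -0.10 in inhibitory and -0.15 in striatal projection neuron-like nuclei. Depth limits the rarer classes most: 9 channel genes could be tested in microglia and 8 in endothelium.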
